A study of Mus musculus with 106 samples.

Results

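The 9 genes described here, of 21938 protein-coding genes, were chosen by name as the core of the oxygen-sensing pathway: Hif1a, Epas1, Arnt, Egln1, Egln2, Egln3, Vhl, Hif1an and Vegfa. The choice was by pathway and not by a threshold on a measured value, but it was made with earlier results of these data known. Each was read at its promoter, within 1 kb of any annotated start site (GRCm38), and across its gene body with 20 kb on either side, in chromatin immunoprecipitation sequencing (ChIP-seq) of H3K27ac and H3K4me3. Acetylated lysine 27 of histone H3 is found at promoters and enhancers in use, while trimethylated lysine 4 gathers chiefly around start sites. The deposited lists of peaks came from 70 libraries, 35 for each mark.

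All animals were C57BL/6J mice, aged 12 to 14 weeks when assigned to the diabetic or control group. Diabetic mice had received streptozotocin, which destroys insulin-producing beta cells, at 42 to 45 mg/kg a day over 5 days. They were taken 6 weeks later with blood glucose above 13.9 mmol/L, beside untreated control mice. The cells called HSC in the labels (hematopoietic stem cells) were bone marrow from which cells carrying CD3, CD4, B220, Ter119 or Gr1 had been removed, so they are a mixture of stem and progenitor cells and not a purified population. Bone marrow-derived macrophages (BMDM) were grown for 7 days in 5 mmol/L glucose with medium conditioned by L929 cells, for diabetic and control animals alike. They were then left in medium alone (unstimulated) or given lipopolysaccharide (LPS) at 100 ng/mL and interferon gamma (IFN-γ) at 10 ng/mL. The time was 16 h in the study's general BMDM protocol, and its ChIP-seq methods give no time of their own. Mark, cell state and disease make 12 groups: 10 held 6 libraries, and the 2 of unstimulated diabetic BMDM held 5 because replicate 3 was not among the lists used.

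Hypoxia-inducible factor is a pair of proteins, an oxygen-labile alpha subunit (from Hif1a or Epas1) and the stable beta subunit Arnt. In oxygen the prolyl hydroxylases Egln1, Egln2 and Egln3 hydroxylate the alpha subunit, Vhl then binds it as the recognition part of a ubiquitin ligase, and it is destroyed. Hif1an, also called FIH, hydroxylates an asparagine that blocks its coactivators. When oxygen is short, or in macrophages given LPS, the alpha subunit builds up and switches on genes such as Vegfa, the main angiogenic growth factor, as well as most glycolytic enzymes. Much of this control acts on protein stability, which histone marks do not measure.

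The lists held 13730 to 277213 peaks, and their read depth is unknown. H3K4me3 lists were shorter in HSC (median 59726.5 peaks) than in unstimulated BMDM (131406) or LPS+IFN-γ BMDM (137889.5), whereas H3K27ac lists were alike in length (medians 125766.5, 111095 and 111612). Strength was therefore read as a rank within each library: genes were ordered by the −log10 p of their best promoter peak, so that rank 1 is the most strongly marked promoter and genes with no peak share the last ranks. The score used in the tests is log2 of 21938 divided by the rank, and a difference of 1 in the score means a rank number smaller by a factor of 2. A rank says nothing of a change that all promoters share. In H3K27ac, 3 libraries of control BMDM stand against their stimulation labels (LPS+IFN-γ replicate 5 and unstimulated replicates 5 and 6), and in H3K4me3 4 libraries have peak values on an unclear scale (control LPS+IFN-γ 6, diabetic LPS+IFN-γ 1 and 2, unstimulated control 6). All are kept under their labels, with values given without them where a call depends on them. Because the 3 BMDM libraries were singled out by stimulation, leaving them out favours a stimulation difference in H3K27ac. Markers broadly followed the labelled cell states in H3K27ac: from HSC to unstimulated BMDM, 6 of 8 stem and progenitor markers and 3 of 3 erythroid markers fell, 4 of 7 macrophage markers rose, and 1 of 2 neutrophil, 1 of 2 T cell and 0 of 2 B cell markers fell. In H3K4me3, 1 of 6 macrophage markers rose and none of the other cell type markers passed the test. Of 8 LPS+IFN-γ response markers, 1 rose with stimulation in H3K27ac and 0 of 6 in H3K4me3. In such bulk samples, fewer cells of a type and less mark per cell cannot be told apart.

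All 9 promoters carried both marks in nearly every library. In H3K27ac, 8 of the 9 had a promoter peak in 35 of 35 libraries and Epas1 in 33. In H3K4me3, 6 had one in 35 of 35, Arnt and Vhl in 34 each and Hif1an in 32, and all 5 of these gaps were in HSC libraries, 2 of them in diabetic replicate 6, the shortest list of all. Over all genes, 47.0% had an H3K27ac promoter peak in every library and 36.9% an H3K4me3 one. Within the 10000 strongest peaks of a list, the members' promoters were found in 243 of 315 readings for H3K27ac and 250 of 315 for H3K4me3. In the median library 40.7% of all genes had an H3K27ac promoter peak within this limit, and 41.0% an H3K4me3 one.

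The alpha subunits were at opposite ends of the pathway. Over the 35 H3K27ac libraries, Hif1a had a median rank of 2038 (76 to 5817) and Epas1 one of 11391 (8406 to 17360), with no library of either reaching into the other's range. Epas1 was the weakest member in H3K27ac. Its H3K4me3 was not: the median rank was 6039 (964.5 to 10586) with a peak in 35 of 35 libraries and a median peak width of 2480 bp, against 999 bp or less for every other member but Vegfa (2423 bp). Arnt, the shared beta subunit, ranked at a median of 2881 in H3K27ac and 5908 in H3K4me3.

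Among the hydroxylases, Egln2 had the strongest H3K27ac (median rank 2566), Egln1 stood at 7973 and Egln3 at 9477. The ranges of Egln1 (4156 to 10473) and Egln3 (7155 to 11332) overlapped. Egln2 ran from 158 to 7626. In H3K4me3 the 3 hydroxylases were close, with medians of 5362, 5410 and 5224 for Egln1, Egln2 and Egln3. Vhl ranked at a median of 5180 in H3K27ac and 6430 in H3K4me3, and Hif1an at 6780 and 10757, which made Hif1an the member with the weakest H3K4me3. Vegfa ranked at 4301 and 3227.

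**Figure D1:**
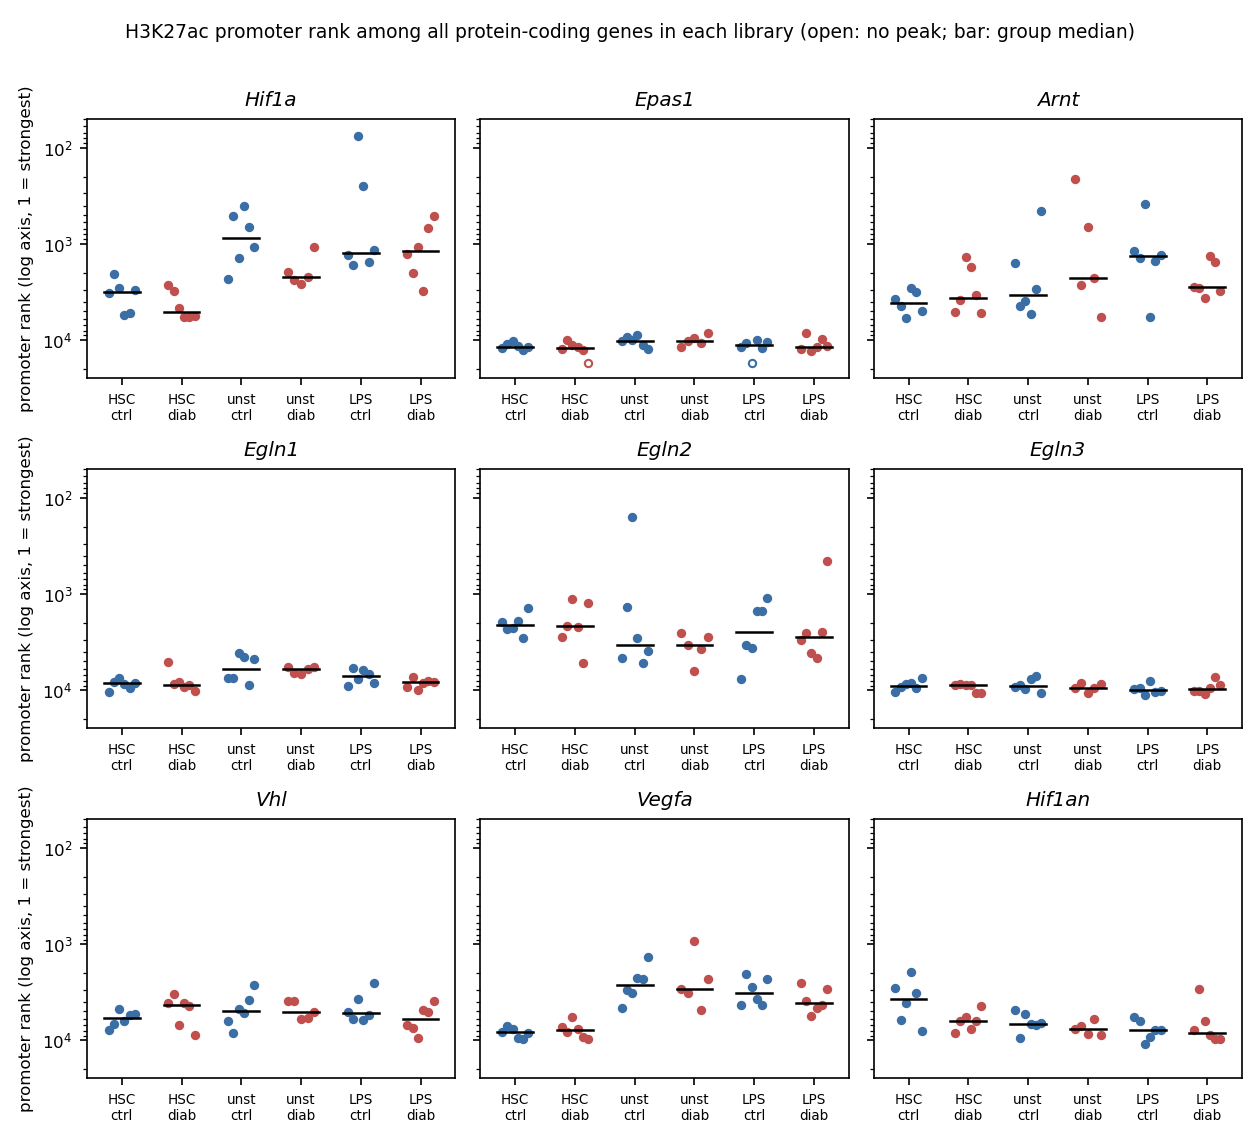
Rank of each member's best promoter peak in each H3K27ac library (vertical axis, log scale, strongest at the top), by cell state and disease. Each point is 1 library, blue for control and red for diabetic mice, open where no promoter peak was called, and bars are group medians. In Vegfa all 12 HSC libraries lie below all 23 BMDM libraries, and Epas1 has the weakest median of the 9 panels.

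For each member with several annotated start sites, the best peak lay nearest the same one in most libraries. The marks do not measure which start site is used. The best Hif1a peak was nearest the start site at chr12:73907904 in 35 of 35 libraries of either mark, and not the most upstream one at 73901375. Its summit lay a median of 640 bp downstream of that site in H3K27ac and 723 bp in H3K4me3. Of 8 annotated Vegfa start sites, the one at chr17:46031356 was nearest the best H3K27ac peak in 27 of 35 libraries. The promoters of the 4 members that passed a test below are shown, from the RefSeq promoter table (GRCm38.p6, 8 of 9 members matched, Epas1 not), to show the sequence upstream of these genes. The marks were measured over 1 kb on either side of every start site and not in these shorter windows. The median H3K27ac summit of each of the 4 lay outside the window printed. For Egln1 it was 319 bp upstream of its start site and for Egln3 251 bp downstream. Each window is written 5′ to 3′ on the gene's strand and holds bases upstream of the RefSeq start. For Egln1 the 70 bases nearest that start, which overlap an annotated exon, are left out. Capitals mark matches on either strand to the hypoxia response element cores ACGTG and GCGTG, the PU.1 core GAGGAA, the AP-1 site TGANTCA or the interferon-stimulated response element core GAAANNGAA.
Vegfa, chr17:46032378-46032627, minus strand: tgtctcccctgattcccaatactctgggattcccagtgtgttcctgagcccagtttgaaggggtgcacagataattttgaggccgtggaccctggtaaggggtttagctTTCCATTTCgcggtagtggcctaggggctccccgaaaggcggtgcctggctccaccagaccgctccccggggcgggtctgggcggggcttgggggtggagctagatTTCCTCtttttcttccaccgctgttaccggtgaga
Hif1a, chr12:73907617-73907866, plus strand: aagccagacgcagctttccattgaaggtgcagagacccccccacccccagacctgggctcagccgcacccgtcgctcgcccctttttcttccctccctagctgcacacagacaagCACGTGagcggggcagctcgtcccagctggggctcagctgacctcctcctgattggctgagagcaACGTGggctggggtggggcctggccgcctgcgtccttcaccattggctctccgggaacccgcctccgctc
Egln1, chr8:124949325-124949504, minus strand: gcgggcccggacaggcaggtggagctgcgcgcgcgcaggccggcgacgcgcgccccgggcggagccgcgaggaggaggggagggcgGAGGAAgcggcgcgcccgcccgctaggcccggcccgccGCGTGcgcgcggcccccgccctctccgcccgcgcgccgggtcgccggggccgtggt
Egln3, chr12:54203875-54204124, minus strand: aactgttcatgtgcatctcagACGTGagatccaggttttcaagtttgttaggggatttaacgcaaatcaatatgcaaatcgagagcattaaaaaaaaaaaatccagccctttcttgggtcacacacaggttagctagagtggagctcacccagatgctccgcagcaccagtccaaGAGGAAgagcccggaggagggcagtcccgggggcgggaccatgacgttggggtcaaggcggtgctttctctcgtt
The Hif1a window held 3 matches to ACGTG, of which 2 are the opposite strands of the overlapping letters CACGTG. Egln3 held 1 ACGTG and 1 GAGGAA, Egln1 1 GCGTG and 1 GAGGAA, and Vegfa 1 GAAANNGAA and 1 GAGGAA with neither hypoxia core in these bases. Among 32851 RefSeq promoter windows of 250 bases, 16.6% held ACGTG, 28.2% GCGTG, 23.3% GAGGAA, 7.13% GAAANNGAA and 6.75% TGANTCA. These are letter matches in a short window and not binding sites.

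The first comparison set unstimulated BMDM against HSC, both diseases averaged, and asks which promoters are marked differently in the macrophage and its precursors. In H3K27ac, 3 of the 9 members passed the test, Vegfa, Hif1a and Egln1, each more strongly marked in BMDM. Over all genes 29.6% of 16981 tested passed, so 3 of 9 is near the background. The members' median difference was +0.23 in the score, against 0.0042 over all genes. Differences here and below are from limma, with Benjamini-Hochberg adjustment over all genes tested, and are given ± SE. The study counts its n in individual animals, but the labels do not tie each library to an animal. The p-values therefore measure the spread between these libraries.

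Vegfa showed the clearest difference. Its H3K27ac ranks were 7126 to 9659 in control HSC (median 8319.5, n = 6) and 5812 to 9640.5 in diabetic HSC (median 7940.5, n = 6). In unstimulated BMDM they were 1377.5 to 4583.5 in controls (median 2674, n = 6), and 2933.5, 3213, 927, 4899.5 and 2335.5 in the 5 diabetic libraries. Every HSC library was thus weaker than every unstimulated BMDM library, and than every LPS+IFN-γ library as well (2059.5 to 5564 over both diseases). The score rose by 1.66 ± 0.22 (limma, adjusted p = 3.64e-07), and by 1.68 in control and 1.65 in diabetic animals taken separately (limma, adjusted p = 0.000205 and 0.000499). H3K4me3 at the same promoter did not follow: its median rank was 2359.5 in HSC and 3552.5 in unstimulated BMDM, a difference of -1.08 ± 0.53 (limma, adjusted p = 0.177).

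Hif1a rose by 1.55 ± 0.44 (limma, adjusted p = 0.00648). Its ranks in control HSC were 2065 to 5488 (median 3148) and in diabetic HSC 2661 to 5816.5 (median 5133.5). Unstimulated control BMDM had 404 to 2353.5 (median 875.75) and the diabetic libraries 1977, 2408, 2613.5, 2243.5 and 1091. The groups overlapped only between 2065 and 2613.5. With peaks ranked by fold enrichment instead of p, the difference was 1.19 and no longer passed (limma, adjusted p = 0.211). The difference passed in control animals taken alone (1.96, adjusted p = 0.0251) and was 1.15 in diabetic animals (limma, adjusted p = 0.239), and the contrast between these was not tested. H3K4me3 ranks of Hif1a spread from 77 to 6707 in HSC and from 71 to 9760.5 in unstimulated BMDM (difference -0.99 ± 0.82, limma, adjusted p = 0.437).

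Egln1, the main oxygen sensor of the 3 hydroxylases, rose by 0.48 ± 0.12 (limma, adjusted p = 0.00327). Ranks were 7460 to 10473 in control HSC (median 8559) and 5063 to 10212.5 in diabetic HSC (median 8824.5), against 4156 to 8925 in unstimulated control BMDM (median 6069.5). The diabetic BMDM libraries stood at 5746.5, 6644, 6858, 6080 and 5798.5. In control animals taken alone the difference passed (0.55, limma, adjusted p = 0.0266), and in diabetic animals it was 0.41 and did not (limma, adjusted p = 0.135), with no test between them. The groups overlapped, and the median peak narrowed from 1518 bp in HSC to 554 bp in unstimulated BMDM.

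The other 6 members did not pass. Hif1an (-0.49 ± 0.19, limma, adjusted p = 0.0504) and Epas1 (0.23 ± 0.09, limma, adjusted p = 0.0528) lay beside the threshold. Hif1an passed without any 1 of 10 libraries (HSC control 2 or 6, HSC diabetic 1 or 4, unstimulated control 1 or 3, unstimulated diabetic 5, LPS+IFN-γ control 3, LPS+IFN-γ diabetic 2 or 3; limma, adjusted p = 0.0139 to 0.0494). Epas1 passed without any 1 of 9 (HSC control 3, HSC diabetic 2 or 3, unstimulated control 5 or 6, unstimulated diabetic 1, LPS+IFN-γ control 3, LPS+IFN-γ diabetic 2 or 3; limma, adjusted p = 0.0321 to 0.0499). Without the 3 doubtful BMDM libraries Epas1 passed (0.28, limma, adjusted p = 0.0302) and Hif1an did not (-0.47, limma, adjusted p = 0.0931). Arnt had 0.95 ± 0.45 (limma, adjusted p = 0.105), and passed only without unstimulated diabetic replicate 6 (1.21, adjusted p = 0.0384). Egln2 (-0.33 ± 0.45), Vhl (0.17 ± 0.19) and Egln3 (0.02 ± 0.09) gave adjusted p of 0.612, 0.554 and 0.899. Vegfa, Hif1a and Egln1 passed without the 3 doubtful libraries too (1.53, 1.54 and 0.51).

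In H3K4me3 the member that passed was another one, Egln3, a hydroxylase gene that hypoxia-inducible factor itself induces. Over all genes 10.4% of 17255 passed, and 1 of 9 members is again near that share, with a members' median of 0.10 against 0.03 over all genes. Egln3 ranked from 7222 to 12253.5 in control HSC (median 9594) and from 1960.5 to 8271.5 in diabetic HSC (median 7666.5). Unstimulated control BMDM ranged from 362 to 5224 (median 3326.5), and the diabetic libraries held 4610.5, 3762.5, 20, 7669 and 5415. The control groups did not overlap and the diabetic ones did. The score rose by 1.92 ± 0.63 (limma, adjusted p = 0.0445), but the call was lost without any 1 of 14 of the 35 libraries (HSC control 2 to 6, HSC diabetic 1, 2, 3, 5 or 6, unstimulated control 1, 3 or 6, unstimulated diabetic 4; limma, adjusted p = 0.0502 to 0.0923). Without unstimulated diabetic replicate 4, whose rank was 20, the difference was 1.12. It also failed without the 3 libraries numbered like the doubtful BMDM ones (limma, adjusted p = 0.0728), without the 4 of unclear scale (0.0709) and with peaks ranked by fold (0.171).

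**Figure D2:**
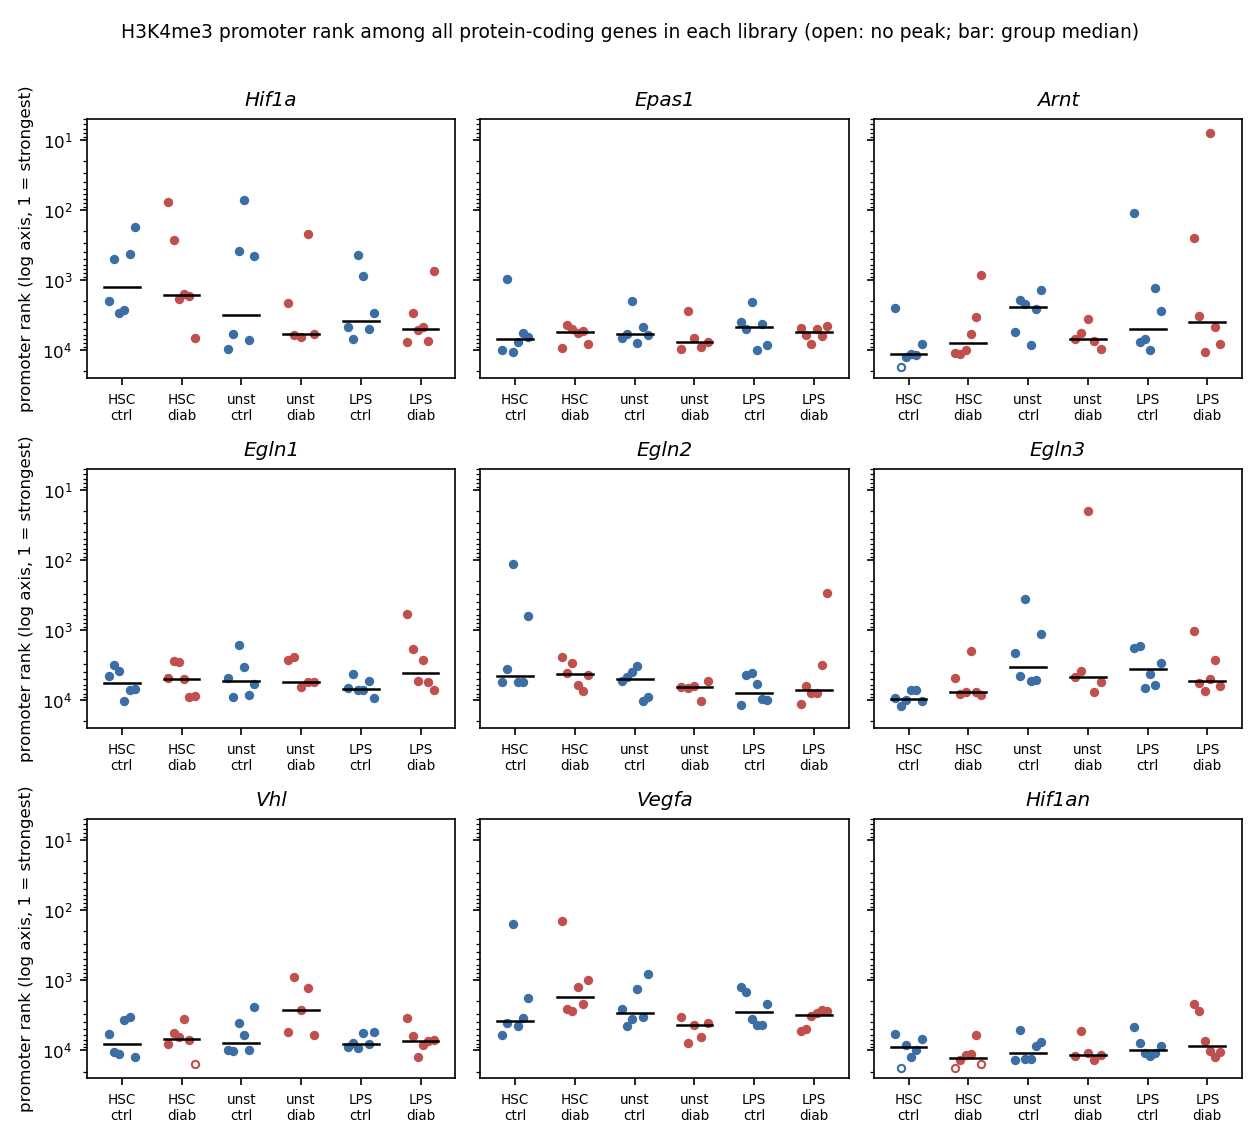
Rank of each member's best promoter peak in each H3K4me3 library (vertical axis, log scale, strongest at the top), by cell state and disease, with points, colours and bars as for H3K27ac. The spread within groups is wide, as for Hif1a (71 to 9760.5 in unstimulated BMDM), and Egln3 has 1 diabetic BMDM library at rank 20.

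The next question was what LPS+IFN-γ did to these promoters in BMDM, where Hif1a is known as an inflammatory gene. This comparison shares the unstimulated libraries with the first. None of the 9 members passed in either mark. Over all genes, 2.06% passed in H3K27ac and 0% in H3K4me3 (0 of 17255 by limma, with 978 at an unadjusted p under 0.05). At an unadjusted p under 0.05 there was 1 member in each mark, Egln1 in H3K27ac and Vhl in H3K4me3. The members' median difference was -0.09 in H3K27ac and 0.12 in H3K4me3, against -0.01 and 0.0023 over all genes. These values average control and diabetic BMDM. In control BMDM alone, which include the 3 doubtful libraries, 0 of 16981 genes passed in H3K27ac (limma, 926 at an unadjusted p under 0.05). In diabetic BMDM alone 344 genes passed, none of them a member.

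Hif1a had the largest stimulation difference in H3K27ac, 0.59 ± 0.44 (limma, adjusted p = 0.518). Its ranks after LPS+IFN-γ were 76 to 1644.5 in controls (median 1236) and 513 to 3090 in diabetic animals (median 1176), and both ranges overlapped the unstimulated ones. Egln1 went the other way, from a median rank of 6080 to 8082 (-0.37 ± 0.12, limma, adjusted p = 0.106, unadjusted 0.00522). Without unstimulated control replicate 5, which is 1 of the doubtful libraries, it passed (-0.43, limma, adjusted p = 0.0421), and without all 3 of them the adjusted p was 0.0506. Leaving these libraries out favours a stimulation difference, as said above. Vegfa stood at -0.43 ± 0.22 (limma, adjusted p = 0.312), and Vhl in H3K4me3 at -0.87 ± 0.34 (limma, adjusted p = 0.799, unadjusted 0.0151). The response in diabetic minus that in control BMDM was largest for Arnt, -1.60 ± 0.90 in H3K27ac and 2.15 ± 1.60 in H3K4me3 (limma, adjusted p = 0.800 and 0.953). For this interaction 0 of 9 members passed in either mark, beside 0% of all genes (limma, 1089 and 867 genes at an unadjusted p under 0.05).

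**Figure D3:**
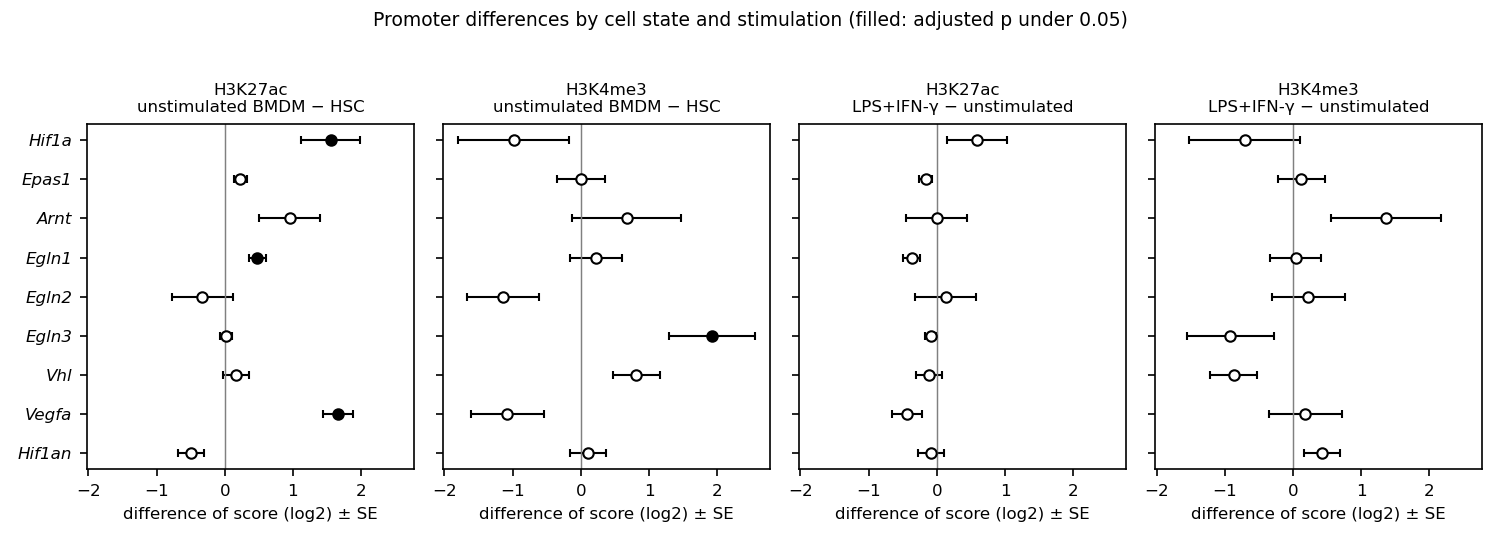
Differences in promoter score (horizontal axis, log2 of the rank ratio, with SE bars) for the 9 members, unstimulated BMDM minus HSC and LPS+IFN-γ minus unstimulated BMDM, in both marks. Filled points have an adjusted p under 0.05: Vegfa, Hif1a and Egln1 for H3K27ac and Egln3 for H3K4me3, all between cell states.

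Diabetes was compared with control within each cell state. By limma, 0 of 9 members passed in any of the 3 cell states, in either mark. Over all genes 0.00589% passed for H3K27ac in HSC (1 gene) and 0% in the other 5 comparisons, with 444 to 990 genes at an unadjusted p under 0.05 in each. Of the 54 member differences, 3 had an unadjusted limma p under 0.05.

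Hif1an in HSC was one of them. Its H3K27ac ranks were 1975 to 8135 in control HSC (median 3712) and 4445.5 to 8521.5 in diabetic HSC (median 6345.5), a difference of -0.69 ± 0.27 with much overlap (p = 0.0133, limma, adjusted p = 1.000; exact permutation p = 0.0628). Vhl H3K4me3 in unstimulated BMDM ranked at 2384.5 to 10252.5 in controls (median 7894) and at 5401, 886, 2690.5, 1294 and 5977.5 in diabetic libraries. Of these, 3 of 5 lay within the control range (1.30 ± 0.50, limma, adjusted p = 1.000, exact permutation p = 0.0758). Egln1 H3K4me3 in LPS+IFN-γ BMDM ran from 4182 to 9377 in controls (median 6805.5) and from 587 to 7033.5 in diabetic libraries (median 4034), with 3 of 6 diabetic libraries stronger than every control (1.13 ± 0.52, limma, adjusted p = 0.855). The 2 strongest of these are libraries of unclear scale.

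A two-sided exact permutation test of each single value, unadjusted, put a different pair under 0.05, and the smallest p it can give is 0.00216. Egln3 H3K4me3 in HSC was stronger in diabetic animals (0.66, exact permutation p = 0.0411), with 2 of 6 diabetic libraries beyond every control. Vegfa H3K4me3 in unstimulated BMDM was weaker (-1.10, exact permutation p = 0.0498): ranks were 824 to 4446 in controls (median 2968.5) and 3336, 7749, 4348.5, 6477 and 4047 in the diabetic libraries, of which 2 of 5 lay beyond every control. Hif1a H3K27ac in unstimulated BMDM had a difference of -1.15 (exact permutation p = 0.0519), from a control median of 875.75 to a diabetic one of 2243.5. These are 2 of 54 such tests, given without adjustment. Standard errors of the disease differences reached 0.65 in H3K27ac and 1.18 in H3K4me3 (Hif1a), so that a change of 1 in the score was not detectable for every member.

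**Figure D4:**
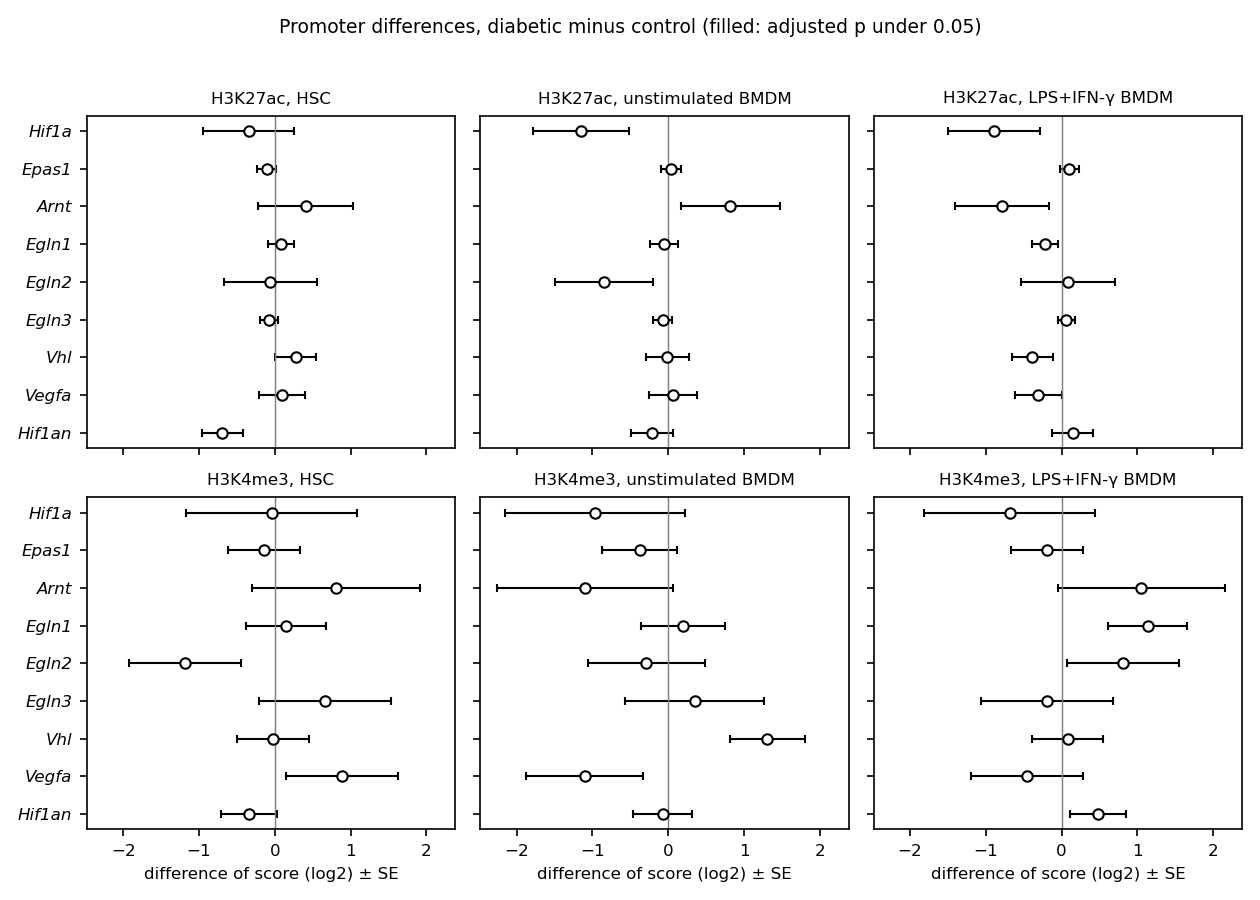
Differences in promoter score, diabetic minus control (horizontal axis, log2 of the rank ratio, with SE bars), for the 9 members, with 1 column for each cell state and 1 row for each mark. No point is filled, since no member had an adjusted p under 0.05, and H3K4me3 bars are the wider ones.

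Around the 9 genes, 42 H3K27ac regions were found in the gene bodies and 20 kb flanks. Regions are the merged top 20000 peaks of the 35 libraries that at least 2 libraries share, 44611 in the genome, and each was ranked and tested like a promoter. A total of 19 of the 42 were distal, with no protein-coding start within 1 kb. Egln1 and Arnt had 5 distal regions each, Egln3 and Vhl 3 each, Vegfa 2 and Hif1a 1. Epas1, Egln2 and Hif1an had none, and at Epas1 the promoter region was the only one.

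Between cell states 19 of the 42 regions passed, beside 45.8% of all regions, so again near the background. Those at Egln1 rose in BMDM and the distal ones at Egln3 fell. Some of these regions entered the set mostly through the cell state where they were stronger, as given below, so these directions were partly built in. Within the Egln1 introns the region chr8:124921093-124922403 rose most (1.06 ± 0.22, limma, adjusted p = 8.39e-05). Its ranks were 11120 to 34119 in HSC (median 19858), 3420 to 12711.5 in unstimulated BMDM (median 9621) and 4586 to 16176 after LPS+IFN-γ (median 10311). All 11 unstimulated and 12 LPS+IFN-γ libraries had it among their top 20000 peaks, against 5 of 12 HSC libraries. H3K4me3 was present over the same intronic interval in 5 of 12 HSC, 11 of 11 unstimulated and 12 of 12 LPS+IFN-γ lists, and HSC H3K4me3 lists are the shorter ones. Its neighbour chr8:124922657-124925023 rose by 0.63 ± 0.19 (limma, adjusted p = 0.00722), and it had entered the set through 14 BMDM libraries and no HSC library.

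At Egln3 the region chr12:54162360-54163674, which lies between genes 40186 bp from the start site, fell in BMDM by 0.87 ± 0.19 on the score (limma, adjusted p = 0.000267). Its median rank was 14991 in HSC (9626 to 24009), 26961 in unstimulated BMDM (15863 to 38292) and 18686 after LPS+IFN-γ. A peak was there in 12 of 12, 8 of 11 and 11 of 12 libraries. The intronic regions chr12:54188159-54188802 and chr12:54191593-54192526 fell as well, by 0.77 and 0.55 (limma, adjusted p = 0.0036 and 0.02). H3K4me3 peaks over these Egln3 intervals ran the other way in number: 2 of 12 HSC, 8 of 11 unstimulated and 8 of 12 LPS+IFN-γ lists had one at chr12:54162637-54163447, and 1, 9 and 10 at chr12:54188221-54188627. At chr12:54191481-54192454 it was 7, 9 and 10, and HSC H3K4me3 lists are again the shorter ones. Of the libraries that brought the 3 H3K27ac regions into the set, 9 of 14, 4 of 7 and 5 of 8 were HSC. Only 1, 0 and 1 were unstimulated BMDM and the rest LPS+IFN-γ, so part of each fall was built in. Egln3 promoter H3K27ac, as said, differed by 0.02, while the H3K4me3 difference there was positive.

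The Vegfa region over the promoter and the start of the gene, chr17:46028250-46034175, rose by 1.75 ± 0.26 (limma, adjusted p = 2.93e-07), and the Hif1a promoter region chr12:73907192-73909128 by 1.49 ± 0.41 (limma, adjusted p = 0.00281, or 0.226 with peaks ranked by fold). The distal Vegfa region that passed, chr17:46009173-46009657, fell by 0.46 and had come in through 2 HSC libraries, so a difference was built in, and with peaks ranked by fold its adjusted p was 0.0501. In the flank of Arnt, 3 distal regions passed, and they lie at its neighbours Ctsk and Ctss, genes of lysosomal cathepsins: chr3:95507255-95510121 rose by 0.62 (limma, adjusted p = 0.00275) and chr3:95510335-95511345 by 0.50 (0.019), while chr3:95515914-95517159 fell by 0.41 (0.042). The first 2 had come in through no HSC library and the last through 2 HSC libraries alone. With peaks ranked by fold the second did not pass (limma, adjusted p = 0.208), and the last did not pass without the 3 doubtful libraries (0.165) or without any 1 of 12 libraries (HSC control 1 or 5, HSC diabetic 1, 5 or 6, unstimulated control 4, 5 or 6, unstimulated diabetic 1, 4, 5 or 6). The strongest distal regions at Hif1a, chr12:73949478-73950226, and at Vhl, chr6:113651415-113656195, had median ranks of 13752 and 16392 and did not pass (-0.38 and -0.19, limma, adjusted p = 0.148 and 0.453). The same held for the strongest at Arnt, chr3:95427329-95428862 (-0.42, limma, adjusted p = 0.106), and for chr17:46027113-46028017 at Vegfa (0.24, limma, adjusted p = 0.233).

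Of all 44611 regions, 3 passed with LPS+IFN-γ in control BMDM alone, which include the 3 doubtful libraries, and 2490 in diabetic BMDM alone. The response in diabetic minus that in control BMDM passed in only 1 of the 44611 (limma). These counts therefore do not show a response limited to diabetic BMDM. With control and diabetic BMDM averaged, 2 of the 42 regions at the loci passed, beside 5.64% of all regions, so no more than the background. One lies 634 bp upstream of the first Hif1a start site, chr12:73899766-73900741, in an intron of the overlapping gene Gm15283. It was found in 0 of 12 HSC libraries, 4 of 11 unstimulated libraries (4 of 6 control, 0 of 5 diabetic) and 11 of 12 LPS+IFN-γ libraries (5 of 6 control, 6 of 6 diabetic). Ranks after stimulation were 8043 to 40868 in controls (median 20846) and 14284 to 32683 in diabetic animals (median 17522). The score rose by 0.82 ± 0.17 (limma, adjusted p = 0.00295), and by 0.96 without the 3 doubtful libraries (limma, adjusted p = 0.000318). Those 3 were doubted for standing against their stimulation labels, so the larger value is no further support. Within the top 50000 peaks, a limit chosen after the values were seen, it was found in 0, 3 and 9 libraries. It had entered the set through 4 LPS+IFN-γ libraries alone, so some difference was built in. The main Hif1a promoter region differed by 0.57 ± 0.41 (limma, adjusted p = 0.476).

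The other was in an Egln1 intron 2077 bp from the start site, chr8:124946062-124947247, and moved the opposite way. A peak was there in 3 of 12 HSC, 11 of 11 unstimulated and 8 of 12 LPS+IFN-γ libraries, and the median rank went from 39005 in HSC to 25066 in unstimulated BMDM and 34342 after LPS+IFN-γ. The score rose by 0.67 ± 0.15 between cell states (limma, adjusted p = 0.000203) and fell by 0.60 ± 0.15 with stimulation (adjusted p = 0.00821). It had entered the set through 3 unstimulated libraries, which raises both differences, and both share the unstimulated libraries. In diabetes 0 of 42 regions passed in any of the 3 cell states (limma, at an unadjusted p under 0.05 there was 1 in HSC, 3 in unstimulated and 0 in LPS+IFN-γ BMDM), beside 0.00224% of all regions in HSC and 0% in the other 2 (0 of 44611 by limma, with 2837 and 2046 at an unadjusted p under 0.05).

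**Figure D5:**
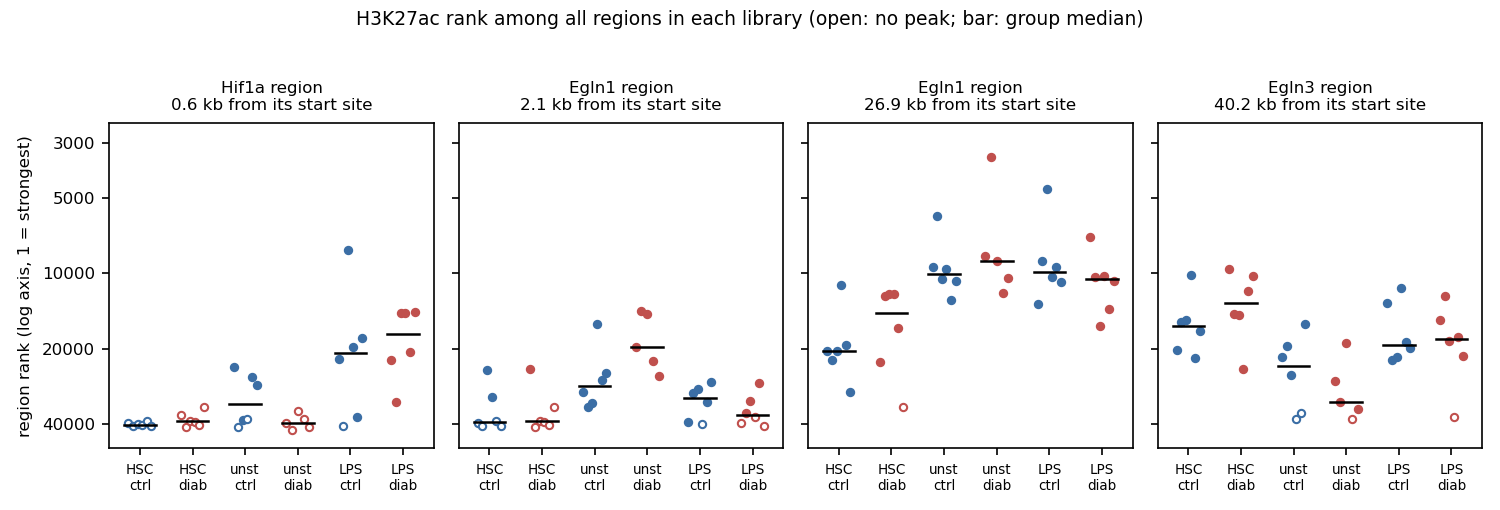
H3K27ac at 4 regions of the members' loci in each library (vertical axis, region rank, log scale, strongest at the top), by cell state and disease, with distance to the gene's start site in the panel titles. Points are libraries, blue for control and red for diabetic, open where no peak was called, and bars are group medians. The Hif1a region is open in all 12 HSC libraries and filled in 11 of 12 LPS+IFN-γ libraries.

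The bases around the summits of 3 of these regions are shown for comparison with the promoters above, since they carry the intronic and distal differences at Egln1 and Egln3 (GRCm38.p6, plus strand, capitals as before).
Egln1 intron, chr8:124921928-124922128: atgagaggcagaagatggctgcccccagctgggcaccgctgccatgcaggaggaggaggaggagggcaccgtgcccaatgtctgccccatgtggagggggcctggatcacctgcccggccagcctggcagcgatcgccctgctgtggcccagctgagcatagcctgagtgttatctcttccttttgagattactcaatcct
Egln1 intron near the start, chr8:124946218-124946418: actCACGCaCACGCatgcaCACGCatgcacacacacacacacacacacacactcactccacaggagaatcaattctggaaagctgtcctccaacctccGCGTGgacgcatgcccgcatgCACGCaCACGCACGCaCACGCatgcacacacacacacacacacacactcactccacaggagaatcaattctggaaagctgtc
Egln3 downstream, chr12:54162976-54163176: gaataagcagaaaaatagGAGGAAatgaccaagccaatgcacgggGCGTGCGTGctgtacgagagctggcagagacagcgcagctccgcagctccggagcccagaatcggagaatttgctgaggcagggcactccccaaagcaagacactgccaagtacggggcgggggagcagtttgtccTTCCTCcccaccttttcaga
The first Egln1 window held none of the 5 motifs. The Egln1 window near the start held 8 matches to GCGTG beside runs of CA repeats, and a stretch of it occurs more than once. How reads were placed in this repeat was not tested. The Egln3 window held 2 GCGTG and 2 GAGGAA matches. Among 27652 summits of distal regions, 25.4% held GCGTG, 16.4% GAGGAA and 12.4% ACGTG.

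Other genes of the pathway were taken from lists of textbook partners and targets. Of 10 HIF partners (coactivators, the rest of the Vhl ubiquitin ligase and further subunits), 2 rose and 0 fell in H3K27ac between HSC and unstimulated BMDM: Cited2, which competes for the coactivators, by 1.18 ± 0.29 (limma, adjusted p = 0.00203) and Arnt2, a relative of Arnt, by 0.35 ± 0.09 (adjusted p = 0.00262). This is beside 29.6% of all genes called, 2430 higher and 2596 lower, so 2 of 10 is no more than the background. Of 25 HIF target genes, of which Nos2 is also an LPS+IFN-γ marker, 9 rose and 3 fell, with a median of 0.28 against 0.0042 over all genes, and 7 rose and 3 fell without the 3 doubtful libraries. Over all genes the share called was the same 29.6% as above. With peaks ranked by fold, 6 rose and 1 fell, and 1 partner rose. The strongest by p was Tfrc, the transferrin receptor that red cell precursors use for iron, which fell by 1.66 ± 0.21 from a median rank of 2325 to 7894. That moved with the erythroid markers, whose part in it was not tested.

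Adm (adrenomedullin) rose by 0.52, Edn1 (endothelin) by 0.45 and Lox (lysyl oxidase) by 0.47, all 3 weakly marked genes with no peak in some HSC libraries (5, 7 and 8 of 12 HSC libraries had one) and a peak in 11 of 11 unstimulated libraries. Bnip3, a mitophagy receptor, rose by 0.73 from a median rank of 7918 to 4876. P4ha1, a collagen prolyl hydroxylase, rose by 1.71 from 4272 to 1523. In H3K4me3, 3 of 25 targets rose and 0 fell, among them Pfkfb3, which drives glycolysis, by 1.22 and Adm by 0.93 (limma, adjusted p = 0.0335 and 0.0348), beside 10.4% of all genes called. Without the 3 libraries numbered like the doubtful ones 1 target passed, with peaks ranked by fold none did, and 0 of 10 partners passed (limma, 1 at an unadjusted p under 0.05). With LPS+IFN-γ, 0 of 25 targets and 0 of 10 partners passed in either mark (limma, 6 and 1 at an unadjusted p under 0.05 in H3K27ac, 5 and 1 in H3K4me3).

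Some genes outside the pathway had promoter scores that ran most closely with a member's over the 35 H3K27ac libraries, given here as a description over libraries that share their cell states. For Vegfa they were 2210011C24Rik (Pearson r = 0.855), Cadm1 (0.854), an adhesion molecule, and Nfkbia (0.822), the NF-κB inhibitor. For Hif1a they were Rusc2 (0.828) and Cd164l2 and Gpr3 (0.823 each). Cd164l2 and Gpr3 had an identical r, and whether both genes read the same peak was not tested.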

How the data were processed

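H3K27ac and H3K4me3 ChIP-seq peak lists from 70 libraries were read; the 36 input samples among the 106 in the series were not analysed here. The authors sequenced 50 bp single reads. The submitters' processing notes name Trim Galore 0.3.3, cutadapt 1.8, FastQC 0.11.3, Bowtie2 2.2.6, Picard 2.19.2 and 2.18.14, bedtools 2.19.1, MACS2 2.2.7.1 and GRCm38/mm10, with no order. The deposited narrowPeak lists, called per library against input, hold the fold enrichment over background, the −log10 p and the −log10 q of each peak as the authors' peak caller wrote them. Read depth is not in these files, so strength was compared by rank within a library.

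Sub-peaks of 1 peak were merged (9511856 summits, 7828714 peaks), and no peak passed a GRCm38.p6 chromosome end. Each of 21938 protein-coding genes (93513 start sites) was ranked by the −log10 p of its best peak within 1 kb of a start. Genes with a promoter peak in 5 or more of 35 libraries were tested, and all 9 members passed this filter in both marks. Regions were merged from the top 20000 peaks per H3K27ac library and kept if found in 2. Scores were fitted with limma 3.58.1 in R 4.3.3 (6 group means per mark, trended empirical Bayes, Benjamini-Hochberg over all features, threshold 0.05) and tested on simulated data. Single disease differences were also tested by exact permutation of libraries. Python 3.11.15, numpy 2.4.6, pandas 2.3.3 and scipy 1.17.1 were used.

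The members and gene lists (HIF partners, HIF targets, markers of cell types and of LPS+IFN-γ) were chosen with earlier results of these data known. Named were all members, distal regions called in a comparison (at most the 3 of smallest p per locus), the strongest distal region per locus, at most 6 called list genes per test and 3 genes of most similar pattern. The upstream Hif1a region was added after its values were seen. Some items are not reported here. Alternatives were ranking by fold, other promoter widths, filters, list limits and scores, a replicate block, and leaving out doubtful or single libraries. The cell state and stimulation comparisons share the unstimulated libraries.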

Additional observations from a re-analysis of the deposited data

Results flagged for a closer look

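In 240 sets of 5 or 6 libraries of 1 group, 19 had 1 library far from the others by Dixon's gap test, which chance gives in about 1 set of 20. Each is given as its rank against the range of the other libraries, and the causes were not tested.

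In H3K27ac, the Egln1 promoter ranked at 5063 in diabetic HSC replicate 1 (others 8273.5 to 10212.5). Epas1 had no peak in LPS+IFN-γ control replicate 3 and so ranked at 17359.5 (others 10067 to 12095). In LPS+IFN-γ diabetic libraries, Egln2 ranked at 455.5 in replicate 6 (others 2521 to 4646.5) and Hif1an at 2969 in replicate 2 (others 6408 to 9778), where the Hif1an promoter region chr19:44562582-44563793 stood at 2775 as well (others 8152.5 to 11346.5).

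In H3K4me3, Epas1 ranked at 964.5 in control HSC replicate 2 (others 5646 to 10586) and Vegfa at 158.5 in control HSC replicate 3 (others 1776 to 6084.5). In diabetic HSC, Vegfa ranked at 143 in replicate 1 (others 978.5 to 2759) and Egln3 at 1960.5 in replicate 4 (others 4871 to 8271.5). In unstimulated diabetic BMDM, replicate 2 had Epas1 at 2725 (others 6696 to 9638) and Hif1an at 5345 (others 10756.5 to 13593.5), and replicate 4 had Egln3 at 20 (others 3762.5 to 7669). Egln2 ranked at 290.5 in LPS+IFN-γ diabetic replicate 6 (others 3134.5 to 11300), the replicate number that stood apart for Egln2 in H3K27ac too.

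Among H3K27ac regions, 2 at Arnt stood apart: chr3:95427329-95428862 at 4521 in unstimulated control replicate 4 (others 10117 to 12084.5) and chr3:95433340-95433827 at 12708.5 in diabetic HSC replicate 6 (others 21937.5 to 29462). At Egln1, chr8:124921093-124922403 was at 3420 in unstimulated diabetic replicate 2 (others 8512 to 11918) and chr8:124946062-124947247 at 23989.5 in diabetic HSC replicate 1 (others 34119 to 41156). At Vegfa, chr17:46009173-46009657 was at 28288.5 in unstimulated control replicate 4 (others 36233.5 to 41272.5) and chr17:46027113-46028017 at 20867.5 in diabetic HSC replicate 5 (others 30962 to 36752).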

How the results depend on the processing

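None of the 4 member differences that passed changed sign under the alternatives run. Of all 108 member differences, 39 did so in at least 1 fit, none of them called: Egln3 H3K4me3 for disease in unstimulated BMDM ran from -1.25 to 1.38 (0.35 as reported), and Egln2 H3K27ac between cell states from -0.69 to 0.16 (-0.33). The number of members passing between cell states in H3K4me3 (1, Egln3) went to 0 with peaks ranked by fold, with list ranks capped at 10000, without the 3 control BMDM libraries, without the 4 of unclear scale and without the shortest list. Unadjusted exact permutation put 1 member under 0.05 in HSC and 1 in unstimulated BMDM for the H3K4me3 disease comparisons, where limma had 0. Of the 19 regions at the loci that passed between cell states, 12 did with peaks ranked by fold, 7 of 20 with regions from the top 10000 peaks, 11 of 31 with regions found in 5 libraries and 11 of 21 within gene bodies. The 2 that passed with LPS+IFN-γ became 0, 0 and 1 under the last 3. They entered through 3 and 4 libraries, so the limit of 5 removes both, and the Hif1a one lies outside the gene body. For the other settings the cause was not tested.

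Leaving out 1 library at a time gave 3 to 5 members passing between cell states in H3K27ac, 0 to 1 in H3K4me3 and 0 to 1 with stimulation in H3K27ac (1 without unstimulated control replicate 5). It gave 15 to 20 regions between cell states, 2 to 3 with stimulation and 0 to 1 for disease in unstimulated BMDM (1 without diabetic replicate 6). Over all genes the H3K27ac cell state count of 5026 was 3114 by fold and 2825 with capped ranks. The stimulation count of 350 was 22 by fold, 97 with capped ranks and 1033 without the 3 control libraries. The H3K4me3 cell state count of 1799 was 134, 649 and 1000 under these 3 settings. In H3K27ac the control libraries left out stood against their stimulation labels, so a higher stimulation count without them is no further support.

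Replicate numbers are shared between groups, but in no pair of groups did every same-numbered pair of libraries correlate above 0.1 (lowest 0.056 to highest 0.345 in H3K27ac diabetic BMDM, -0.213 to 0.229 in control BMDM), and in none was every library closest to its own number. In diabetic BMDM the same-numbered median was still 0.124, against -0.032 for other numbers, with 3 of 5 closest to their own number. In control BMDM it was 0.071 against -0.00034, with 3 of 6. A pairing of stimulated with unstimulated BMDM is thus not excluded. With the replicate number as a block no member's call changed, 0 of 9 members passed with stimulation in H3K27ac as before, and within disease the count over all genes went from 350 to 224. Depth is unknown, lists differ in length, and weak peaks near the end of a list carry the least certain ranks.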
